A study of Homo sapiens with 3 samples.

Results

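The cells described here are the proliferating cells of stem cell-derived islets, 83 of the 6626 cells kept from 9889 barcodes. A barcode was kept when it had at least 1000 detected genes and at most 20% of its UMIs (unique molecular identifiers, one per captured RNA molecule) from mitochondrial genes. A kept cell counted as proliferating when the summed UMIs of MKI67, TOP2A, CENPF, UBE2C and BIRC5 reached 5 per 10000 UMIs of the cell and at least 3 of these 5 genes were detected. The islets came from HUES8, a widely used line of human embryonic stem cells, and were sorted magnetically with an antibody to CD49a, the integrin alpha 1 subunit encoded by ITGA1, into a CD49a-positive (enriched) and a CD49a-negative (depleted) fraction, beside unsorted cells. All 3 groups then aggregated for 7 days before dispersal and single-cell RNA sequencing, and each is represented by 1 library. There is therefore no replicate and no test between groups. The 95% intervals given are exact Poisson, exact binomial or Newcombe intervals and cover counting error only.

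Proliferating cells copy their DNA in S phase and then build the mitotic machinery in G2 and M. Islet endocrine cells arise from progenitors that pass through a short burst of NEUROG3, a transcription factor linked with exit from the cell cycle, and differentiated beta, alpha and delta cells divide rarely. Stem cell-derived islets hold insulin (INS), glucagon (GCG) and somatostatin (SST) cells and, in addition, serotonin-making enterochromaffin-like cells that express TPH1, the first enzyme of serotonin synthesis.

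The 5 genes of the rule encode a nuclear proliferation antigen (MKI67, chromosome 10, 128096659 to 128126385, GRCh38), a topoisomerase (TOP2A, chromosome 17, 40388516 to 40417950), a kinetochore protein (CENPF, chromosome 1, 214603195 to 214664588), a ubiquitin-conjugating enzyme of mitosis (UBE2C, chromosome 20, 45812576 to 45816957) and survivin (BIRC5, chromosome 17, 78214186 to 78225636). All 5 were detected in 75 members, 4 in 4 members and 3 in 4 members. The members nearest to the threshold had sums of 5.15, 5.41 and 6.31 per 10000 in the CD49a-positive, CD49a-negative and unsorted libraries. The nearest cells below it had 4.77, 4.66 and 4.85, and 1 cell in each library reached 5 with fewer than 3 genes. The members were chosen by these values, which are given as a description.

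The label of endocrine cells was checked against a list of 16 pan-endocrine genes (granins, prohormone convertases and endocrine transcription factors). Of the 83 members, 81 held at least 10 UMIs per 10000 of this list, a bound set after the values were seen. The median over members was 140.3 per 10000. By library (CD49a-positive, CD49a-negative, unsorted) it was 128, 149 and 140, below the 154, 173 and 169 of the other kept cells. The bound of 10 lies far under these medians. A CD49a-negative member with 23.4 per 10000 of the list and CHGA at 4.81 passed it. CHGA, the main granin of endocrine granules, ran from 0.481 to 204 per 10000 over the members. The 2 members below the bound, 1 in the CD49a-negative and 1 in the unsorted library, had CHGA at 0.481 and 0.902 and VIM, the intermediate filament vimentin, at 64.5 and 53.7 per 10000. Both go against the endocrine label, and of the 3 collagen genes examined the unsorted one held COL1A2 at 9.47 per 10000. Of 24 markers of acinar, endothelial, neural, hepatic, intestinal, pluripotent and immune cells, 13 had no UMI in any member, among them POU5F1, PECAM1, CDH5, VWF, PTPRC, CPA1 and ALB. The other 11 had UMIs, and the list summed to 696, 761 and 655 CPM (UMIs of a gene scaled to 1000000 UMIs of the class) in the members of the CD49a-positive, CD49a-negative and unsorted libraries, against 752, 797 and 786 CPM in the other kept cells. STMN2, a tubulin-binding protein of neurons, made up most of this, at 557, 615 and 506 CPM against 584, 631 and 622 CPM. The 9 mesenchymal markers summed to 12.3, 31.3 and 40.8 CPM in the members of the 3 libraries, with DCN and PDGFRB at 0. In the other kept cells they summed to 5.69, 15.6 and 8.66 CPM.

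Part of the promoters of the genes that mark these cells carry known cell cycle elements, which the data on the members below can be read beside. Genes of G2 and M often hold a cell cycle genes homology region (CHR), read by the DREAM and MuvB complexes, together with CCAAT boxes read by NF-Y. Genes of S phase often hold E2F sites. In the RefSeq table used (GRCh38.p14, 250 bases before the first listed start), 45 of 51 listed G2/M genes and 29 of 36 listed S phase genes were matched. The letters TTTGAA, on either strand, were found in 24 of the 45 G2/M promoters (53.3%), in 1 of the 29 S phase promoters (3.45%) and in 13.6% of all 27305 promoters. TTTGAA together with CCAAT on either strand was found in 20 G2/M promoters (44.4%) and in 4.85% of all promoters. The letters GGCGGGAA, on either strand, were found in 9 S phase promoters (31.0%), 2 G2/M promoters (4.44%) and 2.77% of all promoters. CCAAT alone was found in 66.7% of the G2/M, 65.5% of the S phase and 33.0% of all promoters. Of the 5 genes of the rule only 3 were matched, 2 with TTTGAA, 3 with CCAAT and 0 with GGCGGGAA. These are matches of letters and do not show a factor at the site.

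A set of 4 promoters is shown because they hold the element within 60 bases of the start of a gene that was high in the members. The first 3 are of G2/M genes: CKS2 and CKS1B, subunits of cyclin-dependent kinase complexes, and GTSE1, a microtubule-binding protein of mitosis. Capitals mark TTTGAA (or its reverse complement) and CCAAT (or its reverse complement). TTTGAA lies 29, 30 and 26 bases before the start of CKS2 (chr9:89310945-89311194, plus strand), CKS1B (chr1:154974431-154974680, plus strand) and GTSE1 (chr22:46296620-46296869, plus strand).
CKS2: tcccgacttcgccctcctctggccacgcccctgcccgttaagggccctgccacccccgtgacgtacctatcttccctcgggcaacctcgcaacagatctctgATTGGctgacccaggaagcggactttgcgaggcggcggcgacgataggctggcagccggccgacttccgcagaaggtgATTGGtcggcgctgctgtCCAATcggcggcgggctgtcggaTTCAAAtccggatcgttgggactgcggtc
CKS1B: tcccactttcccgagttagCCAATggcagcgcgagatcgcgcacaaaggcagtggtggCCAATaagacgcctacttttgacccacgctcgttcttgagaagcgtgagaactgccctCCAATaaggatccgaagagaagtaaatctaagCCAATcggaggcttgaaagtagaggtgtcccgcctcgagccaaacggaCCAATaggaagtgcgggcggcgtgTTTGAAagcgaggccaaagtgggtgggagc
GTSE1: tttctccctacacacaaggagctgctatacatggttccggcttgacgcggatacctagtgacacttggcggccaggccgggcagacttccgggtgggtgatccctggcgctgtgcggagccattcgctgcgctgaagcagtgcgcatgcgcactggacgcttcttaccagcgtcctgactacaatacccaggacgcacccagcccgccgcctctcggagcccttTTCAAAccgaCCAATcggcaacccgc
The other is of an S phase gene, PCNA, the sliding clamp of DNA polymerase (chr20:5126623-5126872, minus strand). Here capitals mark GGCGGGAA alone, which lies 60 bases before the start.
PCNA: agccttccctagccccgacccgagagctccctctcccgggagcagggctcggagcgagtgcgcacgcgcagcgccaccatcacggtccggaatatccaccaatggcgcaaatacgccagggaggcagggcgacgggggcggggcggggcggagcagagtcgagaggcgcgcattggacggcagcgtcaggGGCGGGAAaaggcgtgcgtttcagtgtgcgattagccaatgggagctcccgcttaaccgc

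Proliferating cells were most frequent in the CD49a-negative library and least frequent in the CD49a-positive one. They made up 20 of 2394 kept cells (0.835%, interval 0.511 to 1.29%) in the CD49a-positive library. In the CD49a-negative library they were 35 of 1976 (1.77%, 1.24 to 2.45%). Unsorted aggregates held 28 of 2256 (1.24%, 0.826 to 1.79%). The CD49a-positive share lay 0.936 percentage points under the CD49a-negative share (difference -0.936, interval -1.68 to -0.266), a ratio of 2.12 (1.19 to 3.88) for negative over positive. The unsorted share lay between those of the sorted fractions, and its differences from them had intervals that included 0 (CD49a-positive minus unsorted -0.406 points, -1.03 to 0.185; CD49a-negative minus unsorted 0.530 points, -0.207 to 1.31). With 1 library per group, sorting and library cannot be told apart.

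**Figure D1:**
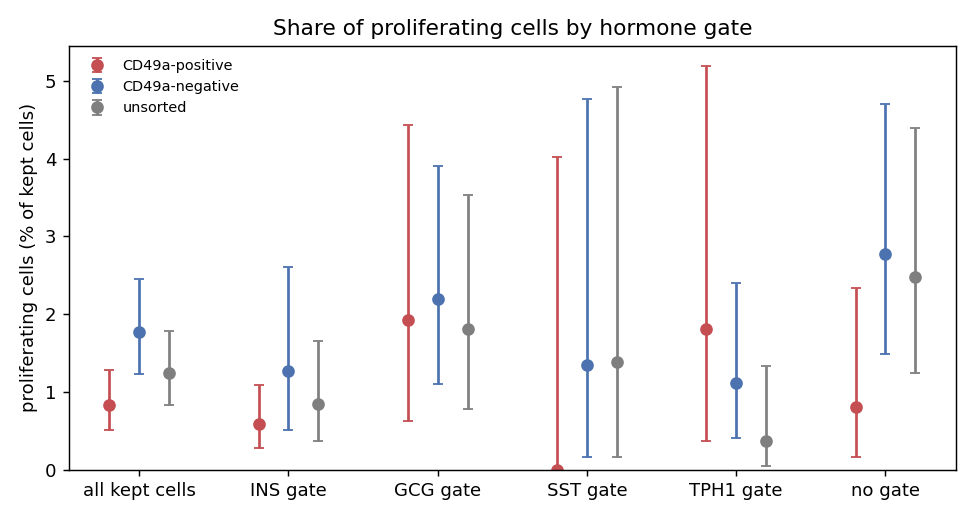
Share of proliferating cells among kept cells (percent, vertical axis) in each library, over all kept cells and within hormone gates; points are shares and bars are exact 95% binomial intervals. Over all cells the shares are 0.835% (CD49a-positive), 1.77% (CD49a-negative) and 1.24% (unsorted), and in each library the GCG gate lies above the INS gate.

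The same order stood inside the hormone classes only in part. Cells were assigned by gates on their UMIs per 10000: at least 300 for INS or GCG, 200 for SST, 20 for GHRL (ghrelin) or PPY (pancreatic polypeptide), and 2 for TPH1. A cell may pass several. Within the INS gate, 0.591% of CD49a-positive and 1.27% of CD49a-negative cells proliferated (difference -0.682 points, interval -2.04 to 0.138). The GCG gate gave 1.92% and 2.20% (difference -0.277 points, -2.30 to 2.40). In the TPH1 gate the order was the other way, with 1.81% and 1.11% (difference 0.696 points, -1.06 to 4.12). Over every cell that passed any gate the shares were 17 of 2021 (0.841%) in the CD49a-positive, 22 of 1508 (1.46%) in the CD49a-negative and 17 of 1813 (0.938%) in the unsorted library. There the difference of positive and negative was -0.618 points, with an interval from -1.42 to 0.0861 that includes 0. Among cells that passed no gate, 3 of 373 (0.804%) proliferated in the CD49a-positive, 13 of 468 (2.78%) in the CD49a-negative and 11 of 443 (2.48%) in the unsorted library. That difference of positive and negative, -1.97 points (-3.96 to -0.0584), was the largest of the 4 classes compared (INS, GCG, TPH1 and no gate).

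GCG cells held a higher share of proliferating cells than INS cells in each library. In the INS gate, 10 of 1693, 7 of 550 and 8 of 947 cells proliferated in the CD49a-positive, CD49a-negative and unsorted libraries (0.591%, 1.27% and 0.845%). For the GCG gate the counts were 5 of 260, 11 of 500 and 8 of 443 (1.92%, 2.20% and 1.81%). The GCG share exceeded the INS share by 1.33 points (interval 0.128 to 3.85), 0.927 points (-0.718 to 2.75) and 0.961 points (-0.243 to 2.73), so the interval of the difference excludes 0 only in the CD49a-positive library. As ratios these were 3.26 (exact interval 0.873 to 10.5), 1.73 (0.612 to 5.26) and 2.14 (0.699 to 6.53), and each interval includes 1. With the gates doubled the order turned in the CD49a-negative library (-0.646 points). The TPH1 gate held 3 of 166, 6 of 540 and 2 of 540 proliferating cells (1.81%, 1.11% and 0.370%), and the SST gate 0 of 90, 2 of 149 and 2 of 144. The 0 of 90 allows a share of up to 3.33% (3 counts of the total). No member passed the gate of GHRL or PPY, which only 7 and 3 kept cells passed.

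Set against the other kept cells, the members as a whole held fewer INS cells and more GCG cells and cells without a gate. Of the 83 members, 30.1% passed the INS gate against 48.4% of the other cells, and 28.9% passed the GCG gate against 18.02%. TPH1 cells made up 13.3% of members and 18.9% of the others, and SST cells 4.82% and 5.79%. No gate was passed by 32.5% of members and 19.2% of the others. These figures pool 3 libraries of different hormone makeup. In the CD49a-positive library TPH1 cells were 3 of 20 members (15%) against 6.87% of the others, and in the unsorted library SST cells were 7.14% against 6.37%, both opposite to the pooled order. Cells without a gate were 15% of CD49a-positive members and 15.6% of the others there. They were more frequent among members only in the CD49a-negative (37.1% against 23.4%) and unsorted (39.3% against 19.4%) libraries. Counted by combination, 18 members passed the INS gate alone, 19 GCG alone, 8 TPH1 alone, 3 SST alone and 27 none. A further 4 passed both INS and GCG, 2 INS and TPH1, 1 GCG and TPH1 and 1 INS and SST.

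**Figure D2:**
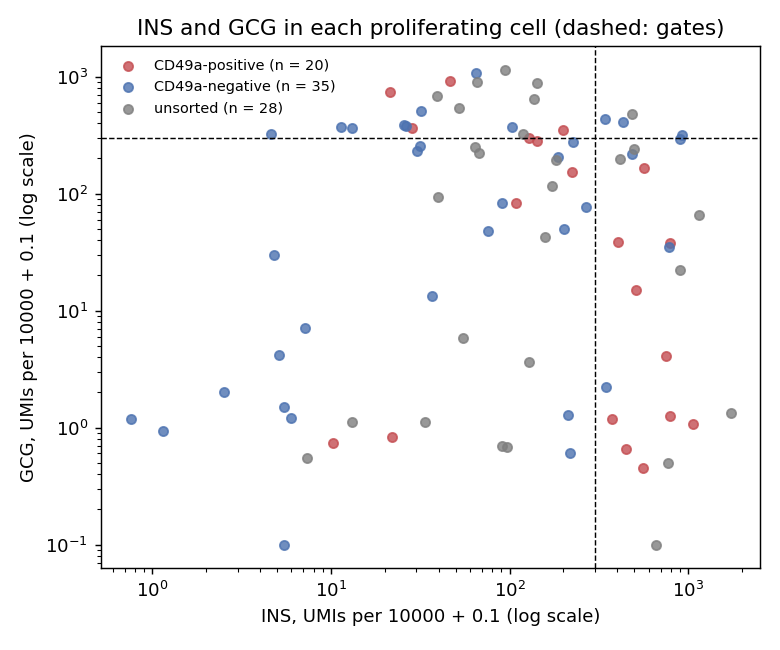
INS against GCG in each of the 83 proliferating cells (UMIs per 10000 plus 0.1, both axes logarithmic), coloured by library, with dashed lines at the gates of 300. The upper right corner holds 4 cells, and cells of all 3 libraries lie on both arms and below both gates.

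The members were deeper than other cells in the sorted libraries. Their median UMI count was 61140 in the CD49a-positive and 50346 in the CD49a-negative library against 48493 and 36776 in the other cells, and 42346 against 42361 in the unsorted library. Members of the INS gate had medians of 92670, 75789 and 82629 UMIs, against 55555, 47262 and 59494 in the other INS cells. Of the 83 members, 21 (6 of 20, 9 of 35 and 6 of 28) held over 2 times the median UMIs of their library, against 8.76%, 13.2% and 14.1% of the other cells. The part of barcodes that hold more than 1 cell in these counts was not tested. Both values are given for some of the results that moved when the deepest cells were left out, and others are given only as counts.

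A second measure of the cell cycle, built on none of the rule's genes, was the summed level of 36 genes of G1/S and S phase. Cells were called high at 20 UMIs per 10000, a bound set after the values were seen, in all kept cells and whether or not they were members. The S phase share repeated the order of the libraries: 15 of 2394 cells (0.627%, interval 0.351 to 1.03%) were high in the CD49a-positive, 30 of 1976 (1.52%, 1.03 to 2.16%) in the CD49a-negative and 29 of 2256 (1.29%, 0.862 to 1.84%) in the unsorted library. It also placed GCG cells above INS cells in each library. In the GCG gate 4 of 260 (1.54%), 19 of 500 (3.80%) and 12 of 443 cells (2.71%) were high. In the INS gate 8 of 1693 (0.473%), 5 of 550 (0.909%) and 6 of 947 (0.634%) were high. The differences of 1.07 points (0.0219 to 3.43), 2.89 points (1.08 to 5.01) and 2.08 points (0.705 to 4.07) had intervals above 0. In the CD49a-positive library this rests on 4 GCG cells. With the gates doubled 0 of its 137 GCG cells were high, which allows up to 2.19%, and the difference there was -0.249 points. After each cell was thinned to 10000 UMIs, which leaves out 330, 144 and 180 shallower kept cells, the differences were 0.766, 2.63 and 2.01 points. The CD49a-positive interval also included 0 after thinning, at a bound of 30, with halved gates and without cells above 2 times the median UMIs. Among TPH1 cells 2 of 166, 2 of 540 and 1 of 540 were high.

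Members and S-high cells overlapped only in part: 27 of the 83 members (6 of 20, 9 of 35 and 12 of 28) were S-high, and 47 of the 6543 other cells were. The rule's genes peak in G2 and mitosis, so cells early in S phase can lie outside it. Of the 47 high cells outside the rule, 2, 16 and 8 passed the GCG gate in the CD49a-positive, CD49a-negative and unsorted libraries, and 7, 4 and 5 the INS gate. Of the 24 members in the GCG gate 9 were S-high, and of the 25 in the INS gate 3 were. The 27 S-high members had a median GCG of 198 and a median INS of 90.2 per 10000, against 40.2 and 193 in the other 56. Over all members the S phase list ran from 0 to 62.3 per 10000 (median 12.2) and the G2/M list from 18.3 to 328 (median 62.1).

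**Figure D3:**
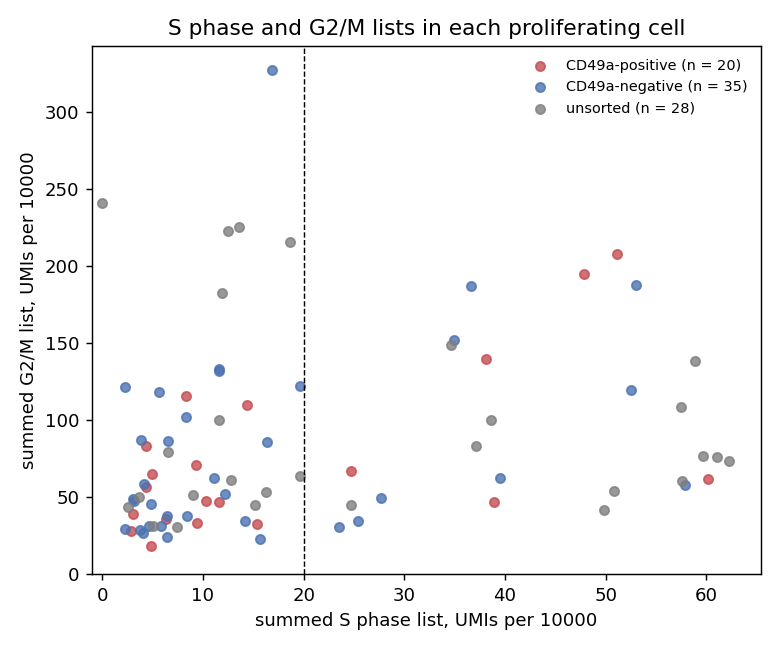
Summed S phase list (horizontal) against summed G2/M list (vertical), both in UMIs per 10000, for each of the 83 proliferating cells, coloured by library, with the S-high bound of 20 dashed. The 27 cells right of the line come from all 3 libraries, and the G2/M sum ranges from 18.3 to 328.

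The hormone and lineage content of the members followed their gate. In the 21 members of the INS gate that did not pass the GCG gate, INS ran from 345 to 1725 per 10000 (median 662). Their beta cell factors were present in most: NKX6-1, required for beta cell identity, was detected in 18 of 21 and PDX1, the activator of the insulin gene, in 16. IAPP, the co-secreted amylin, was detected in 19. MAFA, the factor of mature beta cells, had no UMI in them (upper bound of the interval 2.16 CPM), and the 2961 other INS cells held only 0.940 CPM. Summed over these 21 cells, NKX6-1 stood at 103 CPM against 120 in those other INS cells, and PDX1 at 80.3 against 89.7. GLIS3, a factor of beta cell development, was lower in each library, at 204, 185 and 126 CPM against 342, 330 and 359. NEUROG3 was detected in 7 of the 21. The 20 members that passed the GCG gate but not the INS gate were shallower (median 32748 against 82150 UMIs). In them NKX6-1 was detected in 3, PDX1 in 2, IAPP in 6 and NEUROG3 in 2.

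Alpha cell genes in these members did not share 1 direction across the libraries. IRX2, an alpha cell homeobox factor, was detected in 19 of 21 and summed to 102, 201 and 168 CPM in the CD49a-positive, CD49a-negative and unsorted libraries, against 89.9, 117 and 97.0 CPM. GCG itself was at 2971, 14155 and 9189 CPM against 1831, 5302 and 3621. These members number 10, 4 and 7, and 1 cell gave 71.6%, 73.8% and 64.2% of their GCG UMIs. Without that cell GCG was 968, 5799 and 4364 CPM, below the other INS cells in the CD49a-positive library. IRX2 without its largest cell was 85.1, 167 and 105 CPM, again below the other INS cells in the CD49a-positive library. IRX1, a homeobox gene of the same family, was at 21.6, 94.1 and 63.7 CPM against 30.7, 51.1 and 41.2. TTR, transthyretin, an abundant alpha cell transcript, was at 13348, 27410 and 24779 CPM against 14158, 19335 and 16422, so both were lower in the CD49a-positive and higher in the other libraries. The cells' depth moves with this: 13 of the 25 members in the INS gate (5 of 10, 4 of 7 and 4 of 8) held over 2 times the library's median UMIs, against 11.8%, 22.1% and 26.4% of other INS cells. Its part in these levels was not tested.

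The 20 members that passed the GCG gate but not the INS gate had an alpha cell profile, with INS from 4.50 to 198 per 10000 (median 49.3). GCG ran from 300.1 to 1146 per 10000 (median 445), below the other GCG cells when summed (49019, 57380 and 57820 CPM against 85126, 80804 and 92605 CPM). IRX2 was detected in 18 of 20 and stood at 281 CPM against 270 in the 975 other GCG cells. TTR was found in all 20, at 29762 against 40211 CPM. ITGA1, the gene of the sorted surface protein, stood at 21.3, 60.6 and 48.8 CPM in these members (CD49a-positive, CD49a-negative and unsorted). The other GCG cells held 21.7, 14.5 and 16.5 CPM. ITGA1 was detected in 12 of the 20 members, and these levels rest on few UMIs. In the CD49a-positive library all of it came from the cell with 58185 UMIs, at 0.687 per 10000. No direction is drawn from these values.

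Members with other hormones were few. The 4 members positive for both INS and GCG had INS from 339.9 to 928 and GCG from 317 to 476 per 10000, with IRX2 and PDX1 detected in all 4. They were 4 of 208 such cells (1.92%). The 3 SST members (below the INS and GCG gates) had SST at 262, 1186 and 1431 per 10000, and INS from 36.6 to 218. The 8 members of the TPH1 gate below the INS and GCG gates had TPH1 from 2.43 to 8.18 per 10000. They also held INS from 21.9 to 213 (median 99.8) and GCG from 0.731 to 204 (median 48.7) per 10000, and SST up to 142. Their median UMI count was 94711, and the part of depth in this mixture was not tested. FEV, a factor of serotonergic and enterochromaffin cells, was detected in all 8 (2.04 to 15.3 per 10000), as was NKX6-1. FEV was also detected in 14 of 21 INS and 17 of 20 GCG members, but at 75.6 and 189 CPM. In the 8 TPH1 members it stood at 675 CPM, against 812 in 950 other TPH1 cells, and DDC, the second enzyme of serotonin synthesis, was at 464 against 438. CARTPT, a neuropeptide precursor of part of these cells, was at 4.53 CPM in the 8 members and 204 in the others, and TAC1, the substance P precursor, at 1.51 and 115.

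The 27 members outside every gate differed in hormone level and between libraries. Of these, 2 are the cells low in pan-endocrine genes above, and of the other 25, 15 held INS or GCG at 50 per 10000 or more (8 both, 4 INS alone, 3 GCG alone). The remaining 10 had INS at most 12.9 and GCG at most 29.8 per 10000 while CHGA ran from 4.81 to 204. Of these 10 cells low in INS and GCG, 8 came from the CD49a-negative library and 1 from each of the others. In the CD49a-negative library only 4 of the 13 members without a gate held INS or GCG at 50 or more. In the CD49a-positive library 2 of 3 did, and in the unsorted library 9 of 11. SST, at most 47.3 per 10000, was 10 per 10000 or more in 4 of the 8 low CD49a-negative cells. Summed over all 27, IAPP was 73.7 CPM against 1157 in the 1257 other cells without a gate, and VIM 866 against 481. The 2 cells low in pan-endocrine genes are in this sum. They gave 134 and 119 of the VIM UMIs, the largest counts of any member in their libraries.

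Of 14 endocrine progenitor genes, none passed 2-fold in all 3 libraries. Over all detected genes 1.19% passed higher and 0.00323% lower, so this 0 is near the overall share. Without a filter on low genes 6 of the 14 lay above 0 and 2 below 0 in all 3, beside 14.5% and 31.6% of all detected genes. The median log2 ratio of the 14 genes was 0.08, 0.00 and 0.06. SOX4, a factor active in endocrine progenitors, stood at 316 (interval 287 to 347), 270 (247 to 294) and 361 (331 to 393) CPM in the members against 146, 150 and 152 in other cells (log2 ratio 1.06, 0.80 and 1.20, with 10 CPM added), just under 2-fold in the CD49a-negative library. Within gates SOX4 was at 272, 415 and 396 CPM against 155, 173 and 163 in INS cells, at 271, 255 and 355 against 93.0, 105 and 104 in GCG cells, and at 552, 177 and 419 against 103, 138 and 139 in cells without a gate. All 9 of these comparisons lay in the same direction. HES6, a progenitor gene of the same list, stood at 52.8, 33.0 and 50.5 CPM against 19.8, 18.5 and 19.9. INSM1, a zinc finger factor of endocrine differentiation, was at 357, 257 and 306 CPM against 238, 203 and 215. NEUROG3 was detected in 15 of 83 members, at 2.89, 9.73 and 6.22 CPM against 4.45, 5.62 and 6.77 in other cells, and in the INS gate at 6.44 CPM (interval 3.22 to 11.5) against 6.29. SOX9, a factor of pancreatic progenitors and ducts, was detected in 5. The 11 duct or progenitor markers summed to 392, 503 and 376 CPM in members and 321, 452 and 387 CPM in others, with ONECUT1 and PTF1A at 0 in the members.

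**Figure D4:**
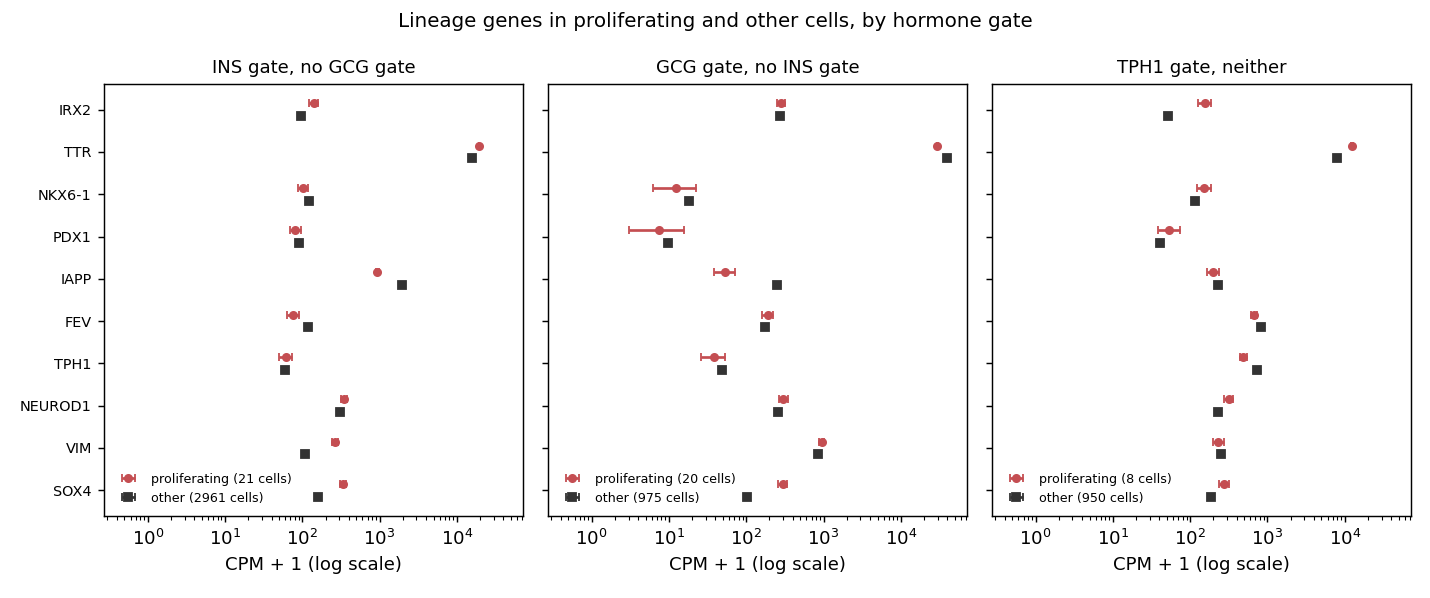
Levels of 10 lineage genes (CPM plus 1, logarithmic axis) in proliferating and other cells of the INS gate (21 and 2961 cells), the GCG gate (20 and 975) and the TPH1 gate (8 and 950), summed over the 3 libraries, with exact 95% Poisson intervals. Proliferating INS cells hold NKX6-1 (103 against 120 CPM), proliferating GCG cells hold IRX2 (281 against 270 CPM), and SOX4 lies higher in the proliferating cells of all 3 panels.

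Across all genes, each library's members were then compared with its other cells on summed UMIs as CPM (1381728, 1850765 and 1446761 UMIs of members), with 10 CPM added to both sides of a log2 ratio. A gene was called when it passed 2-fold in the same direction in all 3 libraries, among 4133 genes with at least 50 CPM and 50 UMIs on the higher side in each. Of these, 203 were higher (4.91%) and 1 was lower (0.0242%). The rule chose the members in this contrast, so the counts are a description. The median log2 ratio over the tested genes was 0.03, -0.04 and -0.03. Outside the cell cycle lists the 12 with the largest ratios were also genes of mitosis or replication: PTTG1, PRC1, PBK, PCLAF, MAD2L1, DIAPH3, KIF14, KIFC1, KNL1, CDKN3, KIF4A and NCAPG. PTTG1, securin, which holds back separase until anaphase, was at 279, 403 and 345 CPM against 5.43, 7.62 and 6.41. PRC1, a microtubule bundler of the central spindle, was at 186, 172 and 196 CPM against 1.05, 1.75 and 1.78.

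G2/M genes were high in the members nearly without exception. Without a filter on low genes, 47 of 51 passed 2-fold in all 3 libraries and all 51 lay above 0, against 370 of all 30985 detected genes past 2-fold higher (1.19%) and 1 lower (0.00323%). Of all detected genes 14.5% lay above 0 in all 3. CDK1, the kinase that drives entry into mitosis, was at 156, 206 and 250 CPM against 0.455, 1.23 and 1.19, and was detected in 75 of 83 members. HMGB2, a chromatin protein, was at 423, 461 and 451 CPM against 3.44, 6.59 and 5.76. The genes whose promoters are printed above were CKS2 at 193, 286 and 277 CPM against 8.07, 14.0 and 10.95, CKS1B at 201, 284 and 261 against 24.4, 35.6 and 27.4, and GTSE1 at 117, 121 and 142 against 0.240, 0.725 and 0.736. FOXM1, the activator of G2/M genes, was at 73.8, 59.98 and 82.3 CPM against 0.512, 1.16 and 0.874.

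S phase genes were also higher, in smaller number. Without a filter on low genes, 22 of 36 passed 2-fold in all 3 libraries, beside 1.19% of all detected genes. Above 0 in all 3 were 34 of them, beside 14.5% of all detected genes. RRM2, a subunit of ribonucleotide reductase, which makes deoxynucleotides, was at 313, 281 and 306 CPM against 1.97, 2.72 and 2.86. PCNA was at 101, 120 and 133 CPM against 14.1, 21.5 and 16.7. Of 16 chromatin and tubulin genes, 14 passed 2-fold higher in all 3 libraries, with or without the filter. Over all tested genes 4.91% did, and over all detected genes 1.19%. H2AFZ, a histone variant, was at 1221, 1603 and 1393 CPM against 209, 275 and 223, and EZH2, the methyltransferase of Polycomb complex PRC2, at 108, 90.2 and 147 CPM against 6.98, 8.50 and 10.1.

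The brakes of the cycle differed among themselves. Of 11 inhibitors and pocket proteins, 3 passed 2-fold higher without a filter on low genes, beside 1.19% of all detected genes. They were CDKN2D and CDKN2C, inhibitors of CDK4 and CDK6, and RBL1, the pocket protein p107. CDKN2D was at 190 (interval 167 to 214), 224 (203 to 246) and 194 (172 to 218) CPM against 28.1, 38.4 and 30.02 (log2 ratio 2.39, 2.27 and 2.35). CDKN2C was at 28.9, 30.8 and 52.5 CPM against 0.0661, 0.254 and 0.221. CDKN1C, the maternally expressed inhibitor p57, stood at 127, 93.5 and 140 CPM against 225, 182 and 196 (log2 ratio -0.78, -0.89 and -0.46), short of 2-fold in each library. None of 11 G1 cyclins and kinases passed, and a count of 0 in a list this short is near the 1.19% of all detected genes. CCND2, the D-type cyclin with the highest level here, stood at 62.2, 61.1 and 70.5 CPM against 90.5, 104 and 99.2.

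No gene of the hormone, beta, alpha, enterochromaffin or pan-endocrine lists passed 2-fold in all 3 libraries in either direction, beside 4.91% of all tested genes higher and 0.0242% lower, so the 0 on the lower side is near the overall share. INS was at 43611, 24072 and 41744 CPM in members against 68416, 30248 and 51488 in other cells (log2 ratio -0.65, -0.33 and -0.30). GCG was at 11240, 20271 and 20264 CPM against 9253, 25891 and 20091. Both orders of GCG occur, as the members are level with the other cells in the unsorted library. IAPP stood at 563, 649 and 773 CPM against 1739, 748 and 1276. In the CD49a-negative and unsorted libraries 2 cells held 83.7% and 82.0% of the members' IAPP UMIs, and without the 2 largest cells IAPP was 376, 118 and 164 CPM in the 3 libraries. Left without the cells above 2 times the median UMIs, the mean log2 ratio of IAPP was -2.83 against -0.84 with them, and that of INS -0.91 against -0.43. With each cell weighted equally, IAPP and GLIS3 were called lower in all 3 libraries.

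Of 18 genes of beta cell function, 11 were below 0 in all 3 libraries without a filter and none above, and none passed 2-fold. Over all 30985 detected genes 31.6% were below 0 in all 3 and 14.5% above. The share of INS cells moves with this list, as 30.1% of members and 48.4% of the other cells passed the INS gate, and its part was not tested. ERO1B, an oxidase of insulin folding, stood at 961, 510 and 600 CPM against 1728, 865 and 1209 (log2 ratio -0.84, -0.75 and -0.998). ERO1B was called lower in all 3 libraries when cells above 2 times the median UMIs were left out. The same held with each cell weighted equally and without cells in more than 1 gate. ABCC8, the sulfonylurea receptor subunit of the KATP channel, stood at 181, 163 and 180 CPM against 282, 256 and 270. CCSER1, the 1 gene called lower and one of the abundant transcripts of these cells, was at 2643, 949 and 1591 CPM against 5344, 1978 and 3448 (log2 ratio -1.01, -1.05 and -1.11). It is just past the threshold, and with the other cells weighted to the members' gate makeup no gene was called lower. Of 9 immature or disallowed genes 2 had the level for a call, and 1 of these was called higher, beside 4.91% of all tested genes. It was LDHA, lactate dehydrogenase A, a gene kept low in mature beta cells, at 70.9, 116 and 118 CPM against 25.5, 39.2 and 30.8.

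Between the members of the CD49a-positive and CD49a-negative libraries, 61 of 4657 genes were past 2-fold higher (1.31%) and 32 lower (0.687%). In the other cells of the same libraries 34 (0.802%) and 27 (0.636%) of 4242 were. The hormone makeup of the members moves with this: 10 of 20 CD49a-positive but 7 of 35 CD49a-negative members passed the INS gate, and 5 and 11 the GCG gate. ITGA1 stood at 89.7 CPM (interval 74.6 to 107) in CD49a-positive, 33.0 (25.2 to 42.3) in CD49a-negative and 72.6 (59.4 to 87.9) in unsorted members. The other cells held 109, 33.2 and 66.1 CPM. The members' interval includes the other cells' value in the CD49a-negative and unsorted libraries and lies below it in the CD49a-positive one.

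The 8 genes farthest higher in CD49a-positive members were BACE2, TGFB2, ROBO2, RIMS1, PCDH11X, PCDH7, CDH18 and HS3ST5. For PCDH11X 1 cell gave 57.3% of the UMIs of the CD49a-positive members, and 7 of 20 had any, and for TGFB2 1 cell gave 32.4%. ROBO2, a receptor of SLIT proteins, was at 544 CPM (interval 505 to 584) in CD49a-positive members (19 of 20 cells) and 132 (116 to 149) in CD49a-negative members (24 of 35), with 259 in unsorted ones. The log2 ratio was 1.96 in members and 1.28 in the other cells. CDH18, a cadherin, was at 561, 159 and 231 CPM, with log2 ratios of 1.76 and 1.30. The protocadherin PCDH7 was at 572, 153 and 160 CPM, with log2 ratios of 1.83 and 1.67. BACE2, a secretase of beta cells, was at 91.2, 13.5 and 25.6 CPM, with log2 ratios of 2.11 and 1.58.

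The 8 farthest lower were SLIT3, PTN, ACSM3, CXCL1, CDH13, ID3, FN1 and ID1, and each rests largely on 1 cell. Gene by gene, the highest CD49a-negative member gave 98.9% of the UMIs of ACSM3, 92.8% of FN1 (fibronectin), 87.7% of PTN (pleiotrophin), 85.6% of ID3, 81.5% of CDH13, 69.4% of CXCL1, 63.7% of ID1 and 61.7% of SLIT3. SLIT3, a ligand of ROBO receptors, was at 1.45 CPM in CD49a-positive, 123 in CD49a-negative and 14.5 in unsorted members. Without the 2 members low in pan-endocrine genes, the log2 ratio of PTN went from -3.12 to -0.93, that of ID3 from -2.36 to -0.54 and that of ID1 from -2.27 to -1.06, while SLIT3 stood at -3.54.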

How the data were processed

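Single-cell RNA libraries of 3 groups, 1 per group, were used. The authors deposited raw UMI counts per gene and barcode, made with Cell Ranger 7.1.0 on GRCh38 per the submitters' processing notes. Library totals were 127119509, 88397368 and 114479071 UMIs (CD49a-positive, CD49a-negative, unsorted). Counts were summed per library and class as CPM, in Python 3.11.15 with numpy 2.4.6, scipy 1.17.1 and pandas 2.3.3. With 1 library per group no test was run. The call rule was checked on simulated Poisson counts. These held no spread between cells, so the check does not cover that spread.

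Members and gene lists were chosen with earlier results of these data known. Named genes are those of the lists, the 12 farthest higher and the 1 lower outside the cell cycle lists, the 8 farthest between sorted fractions, and ITGA1. VIM and the bounds of 20, 10 and 50 per 10000 were chosen after values were seen. No doublet caller was run. No member barcode was shared between libraries (2, 1 and 1 kept barcodes were, by pair), and 1 member's barcode was kept in another library. Alternatives were other thresholds, gates, filters, thinning, added CPM and size factors, and leaving out deep or doubly gated cells.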

Additional observations from a re-analysis of the deposited data

Results flagged for a closer look

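TPH1 moved in opposite directions in 2 libraries. The log2 ratio of proliferating over other cells was 1.10 in the CD49a-positive and -1.37 in the unsorted library, with counting intervals of the ratio on opposite sides of 1, and it was the 1 of 334 listed genes to meet the criterion. The difference was not tested. In the CD49a-positive library 1 of 20 members gave 53.2% of the 171 UMIs of TPH1 and 2 members gave 84.2%. Without the largest cell TPH1 was 63.0 CPM there, against 52.5 CPM in the other cells, and without the 2 largest it was 23.1 CPM, below the other cells.

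Among barcodes left out by the filter on genes and mitochondrial UMIs, 2 of 590 in the CD49a-negative library met the rule for proliferating cells. One had 1831 UMIs, 31.6% of them mitochondrial, with GCG at 590 and INS at 109 per 10000. The other had 7126 UMIs, 38.9% mitochondrial, with GCG at 1.40 and INS at 7.02. None of 2118 in the CD49a-positive library did (limit 0.142%), nor of 555 in the unsorted library (limit 0.541%).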

How the results depend on the processing

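No paired analysis was possible because each group has 1 library and no result comes from a test. The CD49a-negative share stayed above the CD49a-positive share under every threshold, filter and thinning tried, and the interval of the difference included 0 only under a stricter filter on detected genes and mitochondrial UMIs (-0.565 points, -1.51 to 0.320). The unsorted share was 1.82% at a rule sum of 2.5, and the CD49a-negative share 1.16% at a sum of 10. With the gates doubled, the GCG share was below the INS share in the CD49a-negative library (-0.646 points), and for S-high cells in the CD49a-positive library (-0.249 points). With an S phase bound of 30, the difference in S-high cells was 1.04 points in the CD49a-negative library. Without a filter on low genes 370 genes were higher against other cells. Lower genes numbered 12 with each cell weighted equally, 19 without cells above 2 times the median UMIs, 3 without cells in more than 1 gate and 0 with weighting to the gate makeup. Of the 203 genes called higher, 138 to 203 remained called under each alternative. Between CD49a-positive and CD49a-negative members, higher and lower genes numbered 94 and 49 with 1 CPM added, 15 and 16 with 50 CPM added, and 99 and 84 without a filter. Lower ones numbered 49 with equal weights and 77 without the deep cells. The causes of these moves were not tested. Leaving out deep cells, cells low in pan-endocrine genes and all alternatives on S-high cells were chosen after seeing the data. Summed levels of 20 to 35 members weigh deep cells most, and 1 cell can set a gene's value.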

Other observations

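Other gene groups gave no genes past 2-fold between proliferating and other cells in all 3 libraries, as did most genes: without a filter on low genes 1.19% of all detected genes passed higher and 0.00323% lower, so counts of 0 in short lists are near the overall share. None of 16 genes of oxidative phosphorylation passed. COX7C, a subunit of cytochrome c oxidase, stood at 394, 500 and 456 CPM against 456, 591 and 527 in the CD49a-positive, CD49a-negative and unsorted libraries. None of 12 genes of the unfolded protein response passed. PDIA4, a disulfide isomerase of the endoplasmic reticulum, stood at 76.7, 78.9 and 76.7 CPM against 62.2, 43.8 and 49.1, and HERPUD1 at 93.4, 67.5 and 58.1 against 132, 97.5 and 107. Of 12 immediate early genes 8 lay below 0 in all 3 libraries, beside 31.6% of all detected genes, and none passed. None of 10 p53 target genes passed. CDKN1A, the p53-induced inhibitor p21, was at 3.62, 4.32 and 4.84 CPM in the members. FGFR2, a receptor of fibroblast growth factors, stood at 21.0, 24.3 and 26.3 CPM against 6.04, 14.99 and 11.01, the largest ratio of the 12 growth factor receptors.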
